A study of Mus musculus with 81 samples.

Results

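Fork protection and checkpoint genes were examined at 9 loci of the mouse genome, chosen by name from 21887 protein-coding genes: Atr, Chek1, Clspn, Timeless, Brca1, Brca2, Fancd2, Rpa1 and Wee1. A locus is the gene model with 10 kb on each side, in mm10 coordinates, and all 9 genes were found in the gene table. The chromatin measured came from 81 samples in 27 groups of 3, by ATAC-seq, which reads open DNA through the sites a transposase can reach. In repli-ATAC-seq the same reaction is restricted to newly copied DNA, tagged with the nucleotide analogue EdU and captured on beads.

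The aphidicolin group (3 libraries) was mouse embryonic fibroblasts (MEFs) of a Black6-129X1/SvJ background, heterozygous for Col1a1::tetOP-OKSM, R26-M2rtTA and Oct4GFP. These cells were grown in doxycycline at 2 µg/mL, which switches on Oct4, Klf4, Sox2 and Myc through the tetracycline operator, and received aphidicolin at 5 µg/mL from 4 h after induction for a further 10 h. The untreated group (3 libraries) had the same alleles and doxycycline, without aphidicolin, and both were collected at 14 h. MEFs of the same genotype, in doxycycline, gave a reprogramming course with times 6h, 12h and 36h, and were sorted at 60h into the 4 CellViolet fractions Q1 to Q4, whose order of dye brightness the labels do not give. Mouse embryonic stem (ES) cells, wild-type and 129/Ola, made up the other course, which ran to epiblast-like cells (EpiLC) and was sampled at 0h, 9h and 48h. In both courses a pulse of EdU (20 µM, 10 min) came first. Nascent chromatin was taken right after the pulse, and mature chromatin 2 h after the label, following a thymidine chase (10 µM). The bulk signal came from DNA that the beads did not hold. No label tells if the replicates were separate cultures, and each p-value therefore reflects the scatter of these libraries alone, possibly technical.

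When a replication fork stalls, single-stranded DNA is exposed and is coated by the RPA complex, of which Rpa1 is the large subunit. The kinase Atr is recruited there and, with the mediator Clspn and the fork component Timeless, activates the kinase Chek1. Wee1 restrains the cyclin-dependent kinases that drive entry into mitosis. Brca1, Brca2 and Fancd2 protect the newly made strands of stalled forks and act in repair by homologous recombination and in the repair of DNA crosslinks. Aphidicolin blocks the replicative DNA polymerases, so the comparison asks how accessibility in early reprogramming looks when replication is held back.

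The gene tables gave these positions. The sensor Rpa1 lies at chr11:75300259-75348454 and Atr at chr9:95857597-95953217. The signalling genes lie at chr9:36708482-36726658 (Chek1), chr4:126556957-126594533 (Clspn) and chr10:128232063-128252941 (Timeless). Wee1 lies at chr7:110122059-110143299. The fork protection genes lie at chr11:101488761-101551955 (Brca1), chr5:150522297-150570147 (Brca2) and chr6:113531640-113597020 (Fancd2). At 4 of the 9 genes the peak at the gene start also spanned the start of a neighbour, namely 1700065D16Rik at Atr, Nbr1 at Brca1, Emc3 at Fancd2 and Smyd4 at Rpa1. Signal there cannot be divided between the pair.

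Checks on the libraries were as follows. The counted libraries held 55158844 to 78677381 reads with aphidicolin and 41183769 to 49440524 reads untreated. Start peaks of marker genes separated the cell types only in part. All 6 fibroblast markers had one in 6 of 6 MEF bulk lists, but Col1a2, Thy1 and Twist2 also in 3 of 3 ES course bulk lists, Pdgfra and Prrx1 in 2 of 3, and only Col3a1 in 0. Of the 5 pluripotency markers, Nanog (3 of 3) and Esrrb (2 of 3) had one in ES course and not in MEF bulk lists, while Pou5f1 and Sox2 had one in all of both and Zfp42 in 4 of 6 MEF bulk lists. Of the 5 macrophage and blood markers, Cd68 had one in 6 of 6 MEF bulk lists and Csf1r in 3 of 6, and Ptprc, Adgre1 and Tyrobp in 0. Cd68 also had one in 3 of 3 ES course bulk lists. The endothelial markers Cdh5, Kdr and Tek and the muscle and neural markers Des, Myod1 and Tubb3 had one in all bulk lists of both courses. Pecam1, Emcn and Myog had one in 0 MEF bulk lists, and Sox10 in all but that of 36h in the nascent arm. The nascent list at 6h of reprogramming held only 3222 peaks, against 15200 to 27693 in the other 5 nascent lists, so an absent peak there carries little weight.

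Promoter sequence is shown for 4 genes whose start peaks are the subject of the next results: Rpa1, whose start fell furthest with aphidicolin, Clspn and Brca1, which also fell, and Brca2, which did not pass the test. Each is the 250 bases before the RefSeq start (GRCm38.p6, the assembly that shares mm10 coordinates), read 5′ to 3′ on the gene's strand. The positions are chr11:75348384-75348633 on the minus strand for Rpa1, chr4:126556730-126556979 on the plus strand for Clspn, chr11:101551956-101552205 on the minus strand for Brca1 and chr5:150522371-150522620 on the plus strand for Brca2. Capitals mark the matches to CCAAT, to the E2F-type letters and to the CRE described after the sequences. Chek1 and Wee1, whose starts also fell, are not shown, and Wee1 had no promoter window.
Rpa1: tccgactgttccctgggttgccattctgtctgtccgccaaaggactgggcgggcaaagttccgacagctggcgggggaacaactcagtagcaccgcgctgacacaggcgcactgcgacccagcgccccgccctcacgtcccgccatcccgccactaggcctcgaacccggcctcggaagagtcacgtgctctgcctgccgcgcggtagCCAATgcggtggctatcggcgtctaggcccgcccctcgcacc
Clspn: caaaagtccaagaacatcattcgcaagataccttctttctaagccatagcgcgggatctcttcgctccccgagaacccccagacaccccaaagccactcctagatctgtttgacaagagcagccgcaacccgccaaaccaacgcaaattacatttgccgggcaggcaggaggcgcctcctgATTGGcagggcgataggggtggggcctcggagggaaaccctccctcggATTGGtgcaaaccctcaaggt
Brca1: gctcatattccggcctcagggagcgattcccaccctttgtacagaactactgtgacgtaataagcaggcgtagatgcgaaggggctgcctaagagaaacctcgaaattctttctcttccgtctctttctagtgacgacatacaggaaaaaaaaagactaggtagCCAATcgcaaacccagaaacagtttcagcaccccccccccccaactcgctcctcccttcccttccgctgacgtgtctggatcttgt
Brca2: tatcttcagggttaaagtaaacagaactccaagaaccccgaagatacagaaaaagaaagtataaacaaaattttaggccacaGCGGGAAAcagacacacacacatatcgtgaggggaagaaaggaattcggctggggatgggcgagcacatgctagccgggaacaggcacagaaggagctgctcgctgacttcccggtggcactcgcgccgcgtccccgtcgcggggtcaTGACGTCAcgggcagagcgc

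Motifs were searched on both strands over 300 bases, the 250 before and 50 after each start. The promoter table held windows for 7 of the 9 genes. That of Timeless is set on a start 6003 bp inside the gene model, away from its start peak, which left 6. The starts that set the windows of Brca2, Rpa1 and Clspn lie 324, 71 and 23 bp inside their models, whose ends served as gene starts elsewhere. CCAAT, the letters bound by NF-Y, was in the windows of 3 of the 6 (Clspn, Brca1 and Rpa1), against 39.0% of 17492 promoter windows. The window of Chek1, whose start also fell, held 0 matches to CCAAT or to any other motif searched. A link between motifs and falls was not tested. Any of TTTGGCGC, TTTCCCGC, TTTGCCGC and TTTCGCGC, the letters typical of E2F sites, was in 2 of the 6 (Clspn, 21 bases after the start, and Brca2, at -168 from it), against 2.9% of windows. TGACGTCA, the cyclic AMP response element (CRE), was in that of Brca2 alone, at -20 from the start, against 2.3%. CCGGAAG, an ETS-type core, was in that of Atr alone, against 11.9%. TTTGAA, the CHR of cell cycle promoters, was in 0 of the 6, against 16.5% of windows, and the NRF1 motif in 0 of the 6, against 1.3%. No matches overlapped one another in these 6 windows. A match describes the letters and not a bound site.

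With aphidicolin, accessibility at the start of Rpa1 fell by 0.55 on the log2 scale, the largest fall among the 9 genes, and it did so under each of 15 alternative settings. The starts of Wee1, Brca1, Clspn and Chek1 fell by smaller amounts. Those of Brca2, Timeless, Fancd2 and Atr did not pass the test, and no start rose. The counts are reads in the regions within 1 kb of the gene start, in CPM (library-scaled read counts), scaled by TMM, a normalization on the bulk of regions, and tested with edgeR's quasi-likelihood test over all genes.

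Rpa1 had 33.2, 30.9 and 30.6 CPM at its start with aphidicolin, against 51.1, 46.3 and 41.2 CPM untreated. All 3 aphidicolin libraries were below all 3 untreated ones. The log2 fold change was -0.55 ± 0.09 (SE, n = 3 each; edgeR adjusted p = 0.00107), and 2.5% of all starts tested had a lower one. Across the alternatives it ran between -0.62 and -0.21, with an adjusted p of at most 0.0261.

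Wee1, which holds back mitotic entry, had 53.9, 48.2 and 51.1 CPM with aphidicolin, against 71.2, 66.0 and 61.3 CPM untreated. The groups did not overlap. The log2 fold change was -0.37 ± 0.08 (SE, n = 3 each; edgeR adjusted p = 0.00315), but 0.01 with offsets that follow the strength of a region.

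Brca1, which with its partner Bard1 acts in recombination and fork protection, had 44.5, 43.7 and 45.2 CPM with aphidicolin, against 53.5, 58.7 and 56.0 CPM untreated. The aphidicolin libraries lay close together and below every untreated one. The log2 fold change was -0.33 ± 0.07 (SE, n = 3 each; edgeR adjusted p = 0.00364), and it turned to 0.04 with offsets that follow region strength.

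Clspn, the mediator between Atr and Chek1, had 21.9, 20.2 and 20.9 CPM with aphidicolin, against 28.1, 26.5 and 24.6 CPM untreated. The groups did not overlap, and the log2 fold change was -0.33 ± 0.09 (SE, n = 3 each; edgeR adjusted p = 0.0108). Without aphidicolin library b or c its adjusted p was 0.0742 or 0.0598.

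Chek1, the effector kinase, had 33.1, 31.1 and 31.8 CPM with aphidicolin, against 36.9, 37.6 and 36.1 CPM untreated. The groups did not overlap, but the difference was small: a log2 fold change of -0.20 ± 0.08 (SE, n = 3 each; edgeR adjusted p = 0.0482), which lost its call without untreated library b or any 1 aphidicolin library and turned to 0.12 with strength offsets and 0.05 with TMM computed on gene starts. Its call in this sum stands at the edge of the threshold. The sum joins 2 regions that differed. The one 131 bp from the start fell (-0.27, edgeR adjusted p = 0.0128), and the one at -943 bp did not pass (0.08, edgeR adjusted p = 0.55).

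Among the genes that did not pass, Brca2 had 13.2, 10.8 and 10.4 CPM with aphidicolin, against 19.7, 13.2 and 10.8 CPM untreated. Untreated library a stood high and the groups overlapped, with a log2 fold change of -0.35 ± 0.18 (SE, n = 3 each; edgeR adjusted p = 0.118). Atr, the apical kinase, had 16.4, 15.3 and 15.1 CPM with aphidicolin, against 19.5, 17.7 and 13.7 CPM untreated, and its log2 fold change was -0.12 ± 0.12 (SE, n = 3 each; edgeR adjusted p = 0.402). Timeless had 13.5, 13.2 and 11.9 CPM, against 16.2, 14.2 and 14.9 CPM untreated, a log2 fold change of -0.23 that missed the threshold (edgeR adjusted p = 0.0715) although the groups did not overlap. Fancd2 had 8.61, 8.40 and 8.39 CPM, against 11.1, 10.2 and 8.12 CPM untreated, with a log2 fold change of -0.21 (edgeR adjusted p = 0.156). In Brca2, Atr and Fancd2 the untreated libraries were the more spread, and untreated library c the lowest. Without that library, 8 of the 9 starts were lower past the threshold, but so were 9040 of all 14133 starts tested, whose median was -0.31. Brca2 (-0.52), Fancd2 (-0.32) and Atr (-0.25) were among the 8, although with TMM on gene starts Atr (0.14) and Fancd2 (0.05) turned positive.

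**Figure D1:**
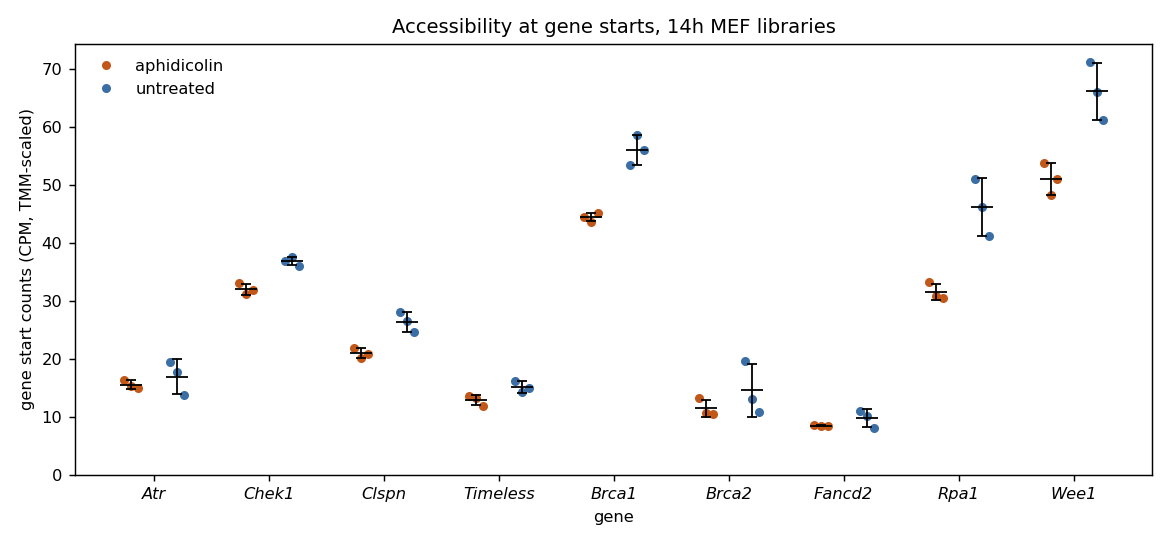
Reads at the gene start of each of the 9 genes in CPM (y axis from 0), with aphidicolin libraries (orange) left of untreated libraries (blue); points are libraries, bars the mean ± SD of 3. Rpa1 stands at 30.6 to 33.2 CPM with aphidicolin and at 41.2 to 51.1 CPM untreated, while the groups overlap at Atr, Brca2 and Fancd2.

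Falls at gene starts were common in these libraries. Of the 9 starts, 5 were lower and 0 higher past the threshold, against 48.4% lower and 3.16% higher (51.5% either way) of the 14133 starts tested. The median log2 fold change was -0.33 over the 9 and -0.26 over all starts. The groups did not overlap at 6 of the 9, against 57.4% of all starts. The count of falls is therefore near the background, and among the 9 Rpa1 lay furthest below the general median. Without aphidicolin library b or c, 3 of the 9 were lower, against 3717 or 3751 of all 14133 starts. Taking library totals in place of TMM moved the median of all regions from 0.02 to 0.18 on the log2 scale and that of all starts to -0.10, and left 3 of the 9 starts lower (Rpa1, Wee1 and Brca1). Offsets that follow region strength, under which the median of all starts was 0, left Rpa1 alone, as did a test against a fold of 1.2. Less accessible chromatin in each cell and fewer cells with an open start cannot be told apart in bulk libraries.

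**Figure D2:**
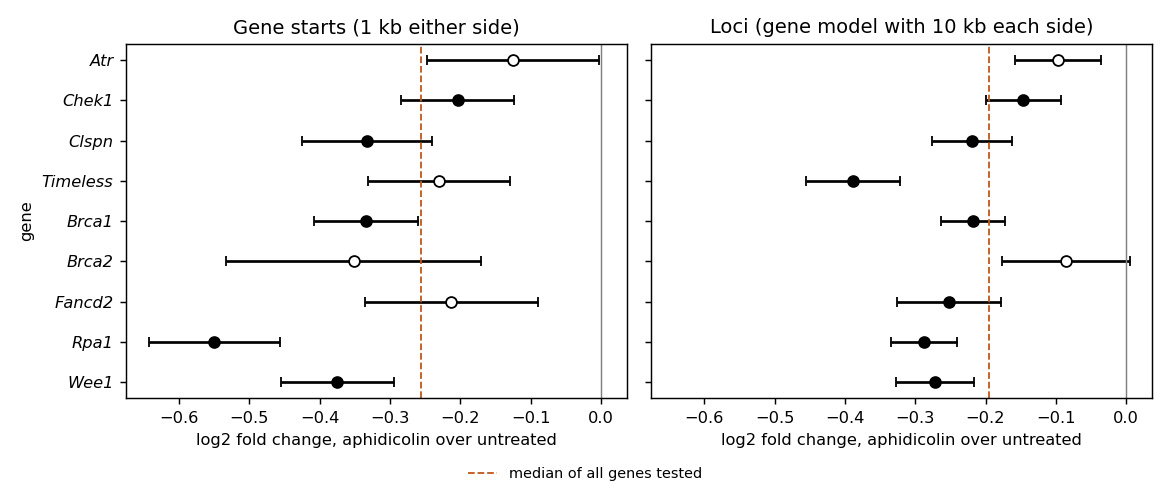
Log2 fold change of aphidicolin over untreated (x axis) for each gene, at the gene start (left) and over the locus (right); bars are the SE of edgeR, filled points passed an adjusted p of 0.05, and the dashed line is the median of all genes tested (-0.26 at starts, -0.20 over loci). Rpa1 lies furthest left at starts and Timeless over loci; with offsets that follow region strength the values of Atr, Chek1 and Brca1 turn positive in both panels, that of Wee1 at starts and that of Brca2 over loci, with library totals those of Atr in both panels and of Chek1 and Brca2 over loci, and with TMM on gene starts those of Atr, Chek1, Timeless and Fancd2 at starts.

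Over loci with 10 kb flanks the lowest value was that of Timeless, but the order depended on the window. Summed over its locus, Timeless had 32.2, 31.1 and 29.0 CPM with aphidicolin, against 43.0, 38.7 and 39.1 CPM untreated, a log2 fold change of -0.39 ± 0.07 (SE, n = 3 each; edgeR adjusted p = 0.000919). Without the 10 kb flanks the log2 fold change of Timeless was -0.18 and did not pass (edgeR adjusted p = 0.0633), and Wee1 was lowest at -0.38. With 50 kb flanks Chek1 (-0.38) and Brca1 (-0.35) lay below Timeless (-0.29). Rpa1 (-0.29), Wee1 (-0.27), Fancd2 (-0.25), Clspn (-0.22), Brca1 (-0.22) and Chek1 (-0.15) were also lower by edgeR's test, with adjusted p between 0.00065 and 0.0346, but Chek1 turned to 0.01 with library totals and, with strength offsets, Chek1 turned to 0.06 and Brca1 to 0.05. With library totals Clspn (-0.06), Brca1 (-0.06) and Fancd2 (-0.09) lost their calls too. With strength offsets Rpa1 (-0.03), Wee1 (-0.01), Clspn (-0.02) and Fancd2 (-0.07) did, and Timeless (-0.21) alone was called. Atr (-0.10) and Brca2 (-0.09) did not pass. That is 7 of 9 loci lower and 0 higher, against 55.6% lower and 9.17% higher (64.7% either way) of 18144 loci tested, again near the background. The median was -0.22 over the 9 and -0.20 over all loci. The sums also hold starts of other genes in the flanks. At Fancd2 these are Fancd2os and Brk1, whose region had a mean of 13.2 CPM with aphidicolin and 15.0 CPM untreated. At Atr it is Xrn1, with 14.0 CPM with aphidicolin and 16.2 CPM untreated. The locus values are therefore not those of the named gene alone.

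Single regions showed where the loci differed from their starts. The 9 loci held 50 of the 138996 regions tested, and over all regions 18.0% were higher and 17.9% lower (35.9% either way). Of the 11 member regions within 1 kb of a gene start, 6 were lower and 0 higher, against 46.8% lower and 3.81% higher of 15329 such regions. Of the 39 away from the start, 7 were lower and 7 higher, against 16.3% lower and 16.5% higher of 79009 such regions of gene loci. Regions that rose were therefore found away from starts in the 9 loci, at about the general rate. The 7 higher became 3 without aphidicolin library b or c, 4 without untreated library a and 11 without untreated library c.

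In the Rpa1 locus the start and a region inside the gene moved in opposite directions. That region, at chr11:75319479-75320080 and 28675 bp from the start, had 10.7, 11.0 and 12.0 CPM with aphidicolin, against 7.22, 8.15 and 8.27 CPM untreated. The groups did not overlap, and the log2 fold change was 0.51 ± 0.09 (SE, n = 3 each; edgeR adjusted p = 0.000648). It passed under each of 12 alternatives, between 0.45 and 0.67. A peak overlapped it in 6 of 6 MEF bulk lists and 2 of 3 ES course bulk lists.

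In the Timeless locus 3 regions fell, 1 at the start (-0.26, edgeR adjusted p = 0.0318) and 2, by more, beyond the 3′ end of the gene. The region at chr10:128256392-128256657, 24461 bp from the start, had 10.5, 9.87 and 9.16 CPM with aphidicolin, against 17.7, 15.1 and 14.4 CPM untreated. Its log2 fold change was -0.68 ± 0.10 (SE, n = 3 each; edgeR adjusted p = 0.00012), and that of the region beside it, at chr10:128256039-128256247, was -0.51. Both passed under each of 12 alternatives. The 2 regions lie under 1 site that had a peak in 6 of 6 MEF bulk lists and 0 of 3 ES course bulk lists. The nearest gene model beyond Timeless is Apon, 1190 bp from its end, so the locus window does not assign the site to Timeless alone.

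In the Fancd2 window a region at the start of another gene fell, as did one beyond it. The region at the start of Fancd2os, a gene that overlaps the Fancd2 model (chr6:113600646-113600898), had 4.25, 3.97 and 3.53 CPM with aphidicolin, against 6.27, 6.17 and 5.45 CPM untreated. Its log2 fold change was -0.61 ± 0.11 (SE, n = 3 each; edgeR adjusted p = 0.0007), and it passed under each of 12 alternatives. The region beyond it, at chr6:113602929-113603156, had a log2 fold change of -0.43 (edgeR adjusted p = 0.00981). It kept its direction under the alternatives, with an adjusted p of up to 0.106. The Fancd2 start itself did not pass.

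The other regions that rose depended more on the setting. Those at Brca1, 14991 and 7719 bp inside the gene, had log2 fold changes of 0.54 and 0.46, that of Brca2, 41483 bp inside, 0.53, and that of Clspn, 17118 bp inside, 0.45. A region at -8731 bp from the Chek1 start had 0.69, and one at -5166 bp from the low end of the Wee1 model 0.27. Each of these 6 kept its direction and lost its call under at least 1 alternative. The regions at Chek1 and Brca2 and the one 7719 bp inside Brca1 lacked a peak in at least 1 of the 6 library lists. At Wee1 the site outside the model had a peak in all 9 bulk lists, while its start fell and a weak region 6689 bp inside the gene (0.71, 0.99 and 0.75 CPM with aphidicolin, against 1.60, 1.34 and 1.17 CPM untreated) had a log2 fold change of -0.73 by edgeR (adjusted p = 0.0108). Regions 3245 bp inside Brca1 (-0.35, edgeR adjusted p = 0.00542) and at -6399 bp from the Clspn start (-0.39, edgeR adjusted p = 0.0321) fell too. Both kept their direction and lost their calls under at least 1 alternative.

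**Figure D3:**
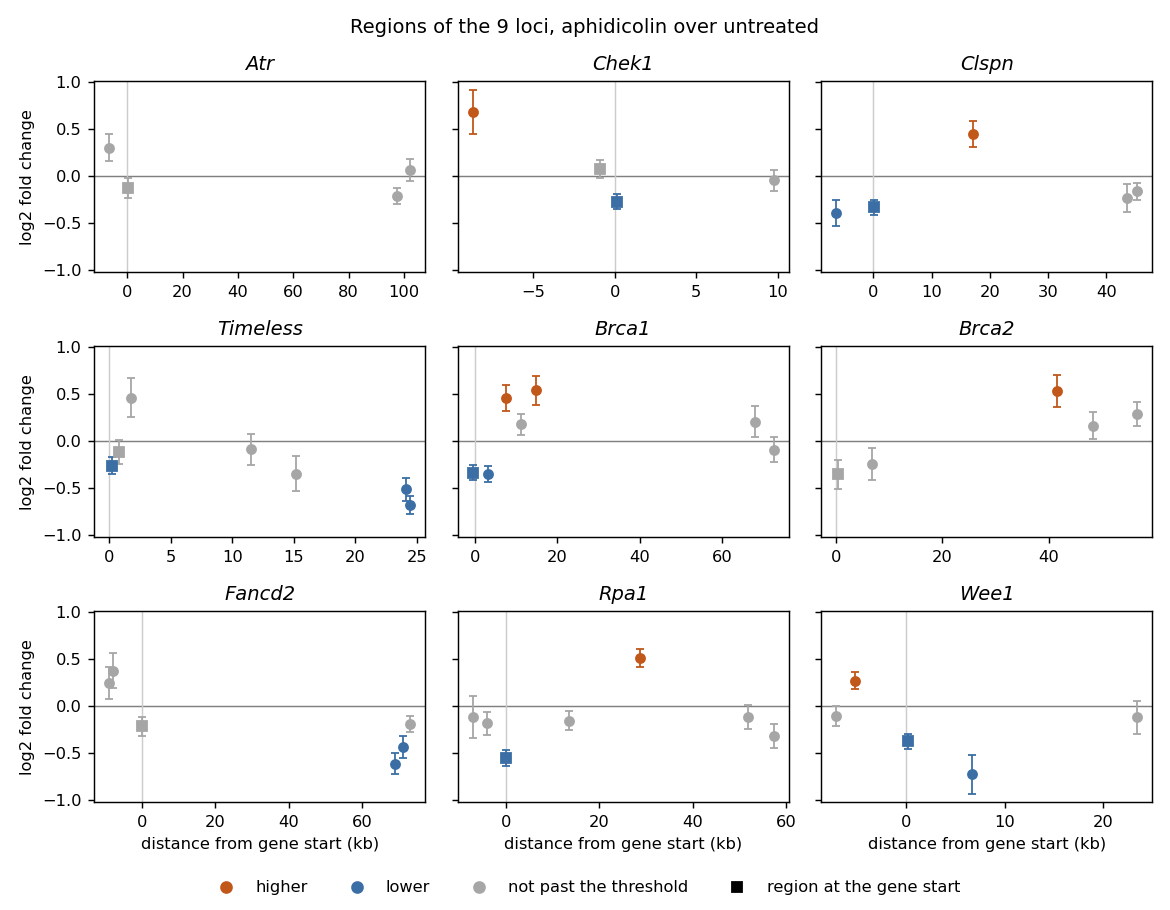
Log2 fold change of aphidicolin over untreated (y axis, with the SE) of the 50 regions of the 9 loci against the distance of the region's middle from the gene start in kb (from the low end of the model for Fancd2 and Wee1); orange regions were higher, blue lower and grey did not pass an adjusted p of 0.05, and squares lie at the gene start. No square is orange, and Rpa1 shows a start at -0.55 and a region 28675 bp inside the gene at 0.51; the regions that passed kept their sign away from starts under every scaling run, while the starts of Chek1, Brca1 and Wee1 change sign in the summed test with strength offsets.

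Other genes of the pathway were read from a list. Of 40 further genes of the Atr and Fanconi pathways, 39 had a start tested, of which 24 were lower and 0 higher by edgeR's test, against 48.4% lower and 3.16% higher of all starts, with a median of -0.29. The difference from all starts, or from the 9 genes, was not tested. The lowest p belonged to Fance, a subunit of the Fanconi core complex, with 47.3, 43.6 and 44.9 CPM against 64.0, 64.6 and 70.2 CPM untreated (log2 fold change -0.55). Blm (-0.58), a helicase that dissolves recombination intermediates, Cdc25c (-0.45), the phosphatase that opposes Wee1, and Fanca (-0.50), another core complex subunit, followed. None of the 4 had groups that overlapped, but they were picked by the smallest p, and at 57.4% of all starts the groups did not overlap.

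Against the same 48.4% lower and 3.16% higher of all starts, genes of origin licensing and firing were lower at 16 of 21 starts and higher at 0, with a median of -0.33. They were led by Gins2 (-0.56), a subunit of the replicative helicase, Cdt1 (-0.41), which loads MCM, Mcm10 (-0.51), an initiation factor, and Orc2 (-0.46), of the origin recognition complex. Genes of mitosis were lower at 13 of 17 and higher at 0, with a median of -0.38, led by Cenpf (-0.67), Ccna2 (-0.56), Cdc20 (-0.50) and Bub1b (-0.50), of kinetochores, S and M phase cyclin control and the spindle checkpoint. Targets of p53 were lower at 5 of 13 and higher at 0, against that same 48.4%, with a median of -0.16, led by Sesn2 (-0.45), Gadd45a (-0.47), Aen (-0.46) and Sesn1 (-0.28). The p53 list thus had a median above that of all starts (-0.26), and the other 3 lists lay below it. Differences between lists were not tested.

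Marker lists of other cells differed in how they moved, and within most lists the genes did not move together. Over all 18144 loci tested 55.6% were lower and 9.17% higher, and differences of the lists from these shares were not tested. Summed over marker loci, fibroblast genes had 386.7 to 391.5 CPM with aphidicolin and 426.7 to 436.0 CPM untreated, with 1 of 6 loci higher and 4 lower. Pluripotency genes had 175.0 to 195.0 CPM with aphidicolin and 239.4 to 255.3 CPM untreated, with 3 of 4 lower, where Pou5f1 and Sox2 can share reads with the inducible cassette. Macrophage and blood genes had 189.3 to 198.3 CPM with aphidicolin and 249.1 to 267.3 CPM untreated, with Cd68 (-0.53) and Csf1r (-0.42) lower, Ptprc (0.24) higher and Tyrobp not called. Endothelial sums overlapped, at 181.6 to 184.4 CPM with aphidicolin and 181.0 to 188.1 CPM untreated, with 1 of 5 loci higher and 1 lower. Muscle and neural genes had 88.3 to 95.3 CPM with aphidicolin and 97.5 to 115.1 CPM untreated, with 1 of 5 higher and 2 lower. The part of cell composition in the results at the 9 loci was not tested.

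The number of peaks called in the 9 loci did not separate the groups. The aphidicolin lists held 49, 57 and 55 peaks there, and the untreated lists 47, 50 and 47. The means were 53.7 ± 4.16 and 48.0 ± 1.73 (SD, n = 3 each; two-sided exact permutation p = 0.2, where 3 against 3 cannot go below 0.1). The aphidicolin lists were longer as a whole, with a mean of 156855 peaks against 124481 untreated. Cut by score to the same length, they held a mean of 45.0 peaks in the 9 loci with aphidicolin and 46.7 untreated (two-sided exact permutation p = 0.3). All 9 starts had a peak in each of the 6 library lists.

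Across the 2 time courses all 9 genes kept an open start. Each had a peak within 1 kb of its start in all 9 bulk lists and in all 4 sorted fractions, against 64.5% to 70.2% of all genes in the bulk lists and 53.1% to 59.0% in the fractions. There is 1 pooled list per group, so these values have no replicate check and were not tested. Peak scores are the authors' and serve here to rank peaks within a list.

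The starts differed in strength, and Rpa1 led. Its start peak lay between the 99.1 and 99.9 percentiles of scores in the 9 bulk lists and between 95.2 and 99.5 in the mature lists other than 6h. Wee1 (95.1 to 98.4), Clspn (94.1 to 97.4) and Brca1 (94.6 to 98.1) came next in bulk. Brca2 lay at 90.3 to 96.3, and Chek1 at 96.1 to 96.6 in the ES course and 83.1 to 90.6 in MEFs. Where more than 1 peak lay within 1 kb, the strongest was taken. For Chek1 at MEF 6h (83.5 and 83.1) that was another site, at -994 bp (chr9:36727441-36727863). This site had a peak in 6 of 6 MEF and 0 of 3 ES course bulk lists, so the Chek1 range ranks unlike sites. Atr (78.8 to 92.6), Fancd2 (80.3 to 88.4) and Timeless (68.7 to 80.3) were the lowest. The ranges of neighbours in this order overlap or touch, except between Rpa1 and the rest.

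Some starts ranked differently in new chromatin. In the nascent list at ES 0h, Brca1 stood at the 40.7 percentile, against 92.4 in mature and 96.8 in bulk, and at 9h at 34.1, against 97.3 in mature and 97.1 in bulk. In MEFs at 12h the nascent, mature and bulk values of Brca1 were 88.5, 95.7 and 97.8. The nascent peaks scored for Brca1 (chr11:101552593-101552872 at ES 0h, chr11:101552329-101552835 at 9h and chr11:101552353-101553066 at MEF 12h) lay beyond its model, on the side of Nbr1. The mature and bulk peaks spanned both starts and were wider, with 1167 and 1444 bp at ES 0h and 1477 and 1470 bp at 9h. The Brca1 values therefore rank unlike stretches. Brca2 in MEFs stood at 45.1 in nascent, 76.9 in mature and 96.3 in bulk chromatin at 12h, and at 39.7, 68.3 and 93.6 at 36h. In the ES course Brca2 stood higher in nascent (84.2) than in mature chromatin (69.4) at 0h, lower at 9h (41.6 and 76.6), and close at 48h (71.4 and 73.3). Rpa1 had 97.6 in nascent, 96.0 in mature and 99.7 in bulk chromatin at ES 0h. Percentiles come from lists of unequal length and show rank only, and near the top of the scale they can move little.

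Nascent lists nearly always held the 9 starts. They held 8 of 9 at ES 0h, where Fancd2 was missing, and 9 of 9 at 9h and 48h and at MEF 12h and 36h. With a 250 bp window the 9h list held 8 of 9, against 41.6% of all genes. Among genes with a start peak in the bulk list of the same time, the nascent lists held 68.9% at 0h, 67.1% at 9h, 80.1% at 48h, 67.6% at MEF 12h and 68.8% at 36h. At MEF 6h the short nascent list held 3 (Chek1, Clspn and Wee1), against 14.3% of genes with a bulk start peak at that time. The mature list of MEF 6h held 3 (Brca1, Rpa1 and Wee1), against 42.4% of the same genes. Mature lists held 9 of 9 at every other time, against 82.9% to 92.2% of genes with a bulk start peak at the same time. With every list cut to the 3222 strongest peaks, the nascent lists held 2 or 3 of the 9, against 9.4% to 14.1% of all genes.

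**Figure D4:**
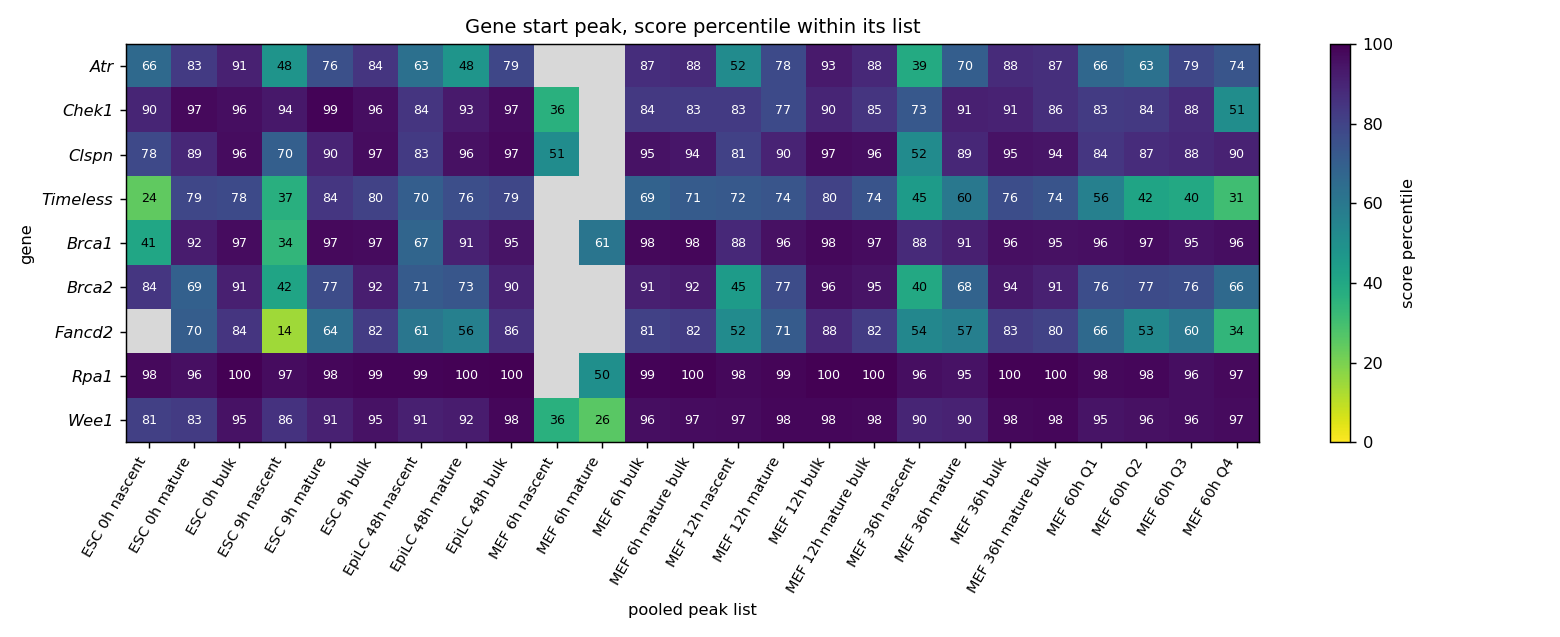
Score percentile, within its list, of the strongest peak within 1 kb of each gene start (rows) in the 25 pooled lists (columns). Cells are darker for stronger peaks and grey where no peak was listed. Rpa1 is dark in all lists but the nascent and mature ones of MEF 6h, and grey cells are confined to the nascent and mature lists of MEF 6h and to Fancd2 in the nascent list of ES 0h.

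Away from the starts many peaks were listed in one course and not in the other. Merged over the 25 lists, they held 136 sites, of which 17 had a peak in every bulk list, 9 of these being the gene starts. A further 11 were in all 3 ES course bulk lists and no MEF one, and 13 in all 6 MEF bulk lists and no ES course one. The criteria differ, with 3 lists for the ES course and 6 for MEFs, so 11 and 13 cannot be compared directly. These counts have no background over the loci of all genes, and whether they are ordinary for gene loci was not tested. The Timeless locus held 4 of those 11, at -10575, 8203, 22699 and 30648 bp from the start of Timeless. Only the site at 8203 bp lies in the gene model, and the site at 22699 bp lies at the start of Apon. Of the 13 MEF sites, 10 lay in the flanks.

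Rpa1 had the most peaks of the 9 loci in the ES course, with 12, 16 and 11 at 0h, 9h and 48h, and 9, 10 and 7 in the MEF bulk lists of the nascent arm at 6h, 12h and 36h. Timeless had 8, 8 and 10 in the ES course and 5, 5 and 5 in MEFs. Chek1 ran the other way, with 2, 2 and 1 in the ES course and 5, 4 and 3 in MEFs. Fancd2 had 6, 9 and 4 in the ES course and 4, 11 and 7 in MEFs.

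In total the 9 loci held 60, 69 and 49 peaks in the ES course bulk lists, and 52, 62 and 47 in those of the MEF nascent arm. The mature arm bulk lists held 55, 61 and 43. The middle time had the most in each set, but among peaks above the median score of their list the counts were 28, 28 and 30 in the ES course, 32, 40 and 31 in the nascent arm and 41, 40 and 33 in the mature arm. The mean per gene in the ES course was 6.67, 7.67 and 5.44 for the 9, and 6.18, 6.24 and 6.12 over all genes. In the nascent arm it was 5.78, 6.89 and 5.22 for the 9, and 6.36, 7.24 and 5.30 over all genes, and in the mature arm 6.11, 6.78 and 4.78 for the 9, and 7.24, 6.59 and 5.53 over all genes. The sorted fractions Q1 to Q4 held 30, 26, 28 and 24 peaks, with 3.33, 2.89, 3.11 and 2.67 per member and 3.14, 2.87, 3.16 and 2.54 per gene overall.

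**Figure D5:**
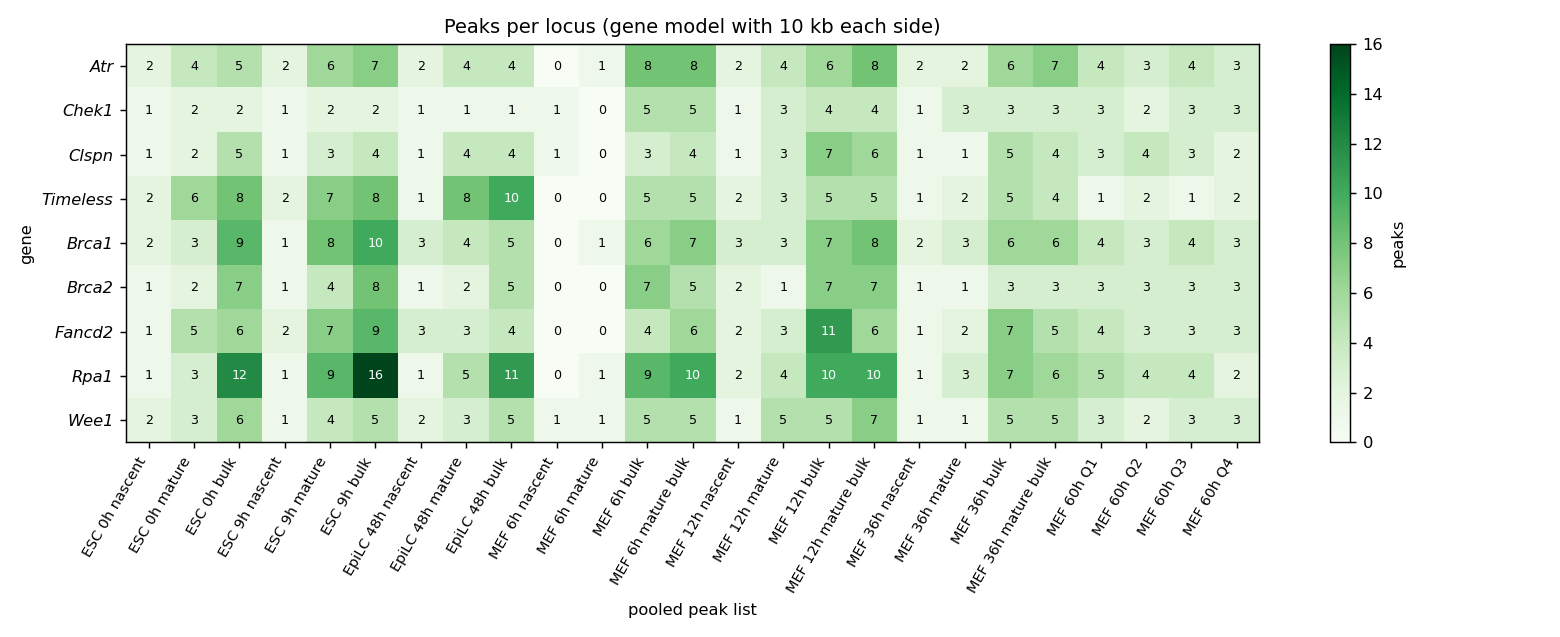
Number of peaks in each locus (rows, gene model with 10 kb each side) in the 25 pooled lists (columns), darker for more peaks. Rpa1 reaches 16 in the ES 9h bulk list, and Timeless has 8 to 10 peaks in the ES course bulk lists and 4 or 5 in the MEF ones.

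Among all other protein-coding genes, the profile of start score percentiles over the 25 lists that lay nearest by Euclidean distance was that of the neighbour sharing the start peak for Atr (1700065D16Rik), Brca1 (Nbr1), Fancd2 (Emc3) and Rpa1 (Smyd4), at a distance of 0. For Wee1 it was that of Azin1 (19.4 percentile points), for Clspn Coro1b (21.9), for Brca2 Lrp6 (23.7), for Chek1 Sumo2 (36.8) and for Timeless Hadha (40.8).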

How the data were processed

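ATAC-seq and repli-ATAC-seq were run on 81 samples. By the submitters' processing notes, the build was mm10 and the tools were MACS2 2.2.0, Bowtie2 2.2.5, bedtools 2.26.0, cutadapt 2.2.0, SAMtools 1.4.1 and bcl2fastq 2.19.1. A shift of reads for the transposase is not stated in the sources used here, nor is the read counter. The authors deposited peak lists with a score per peak, 25 of 1 per group and 6 of 1 library each. They also deposited raw read counts over 139000 regions in the 6 aphidicolin and untreated libraries. Numbers in the count columns match no sample's labels, so each group's libraries go by a, b and c.

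The 9 genes and all lists were chosen with earlier results of these data known. Genes came from a RefSeq table of GRCm38.p6, with strand from its promoter table. Fancd2 and Wee1 had no strand, so either end of the model counted as the start. Counts were tested over regions, loci and starts with edgeR 4.0.16 in R 4.3.3 (quasi-likelihood, filterByExpr), with TMM factors from the regions, two-sided Benjamini-Hochberg adjustment over all features and a threshold of 0.05. The fits were tested on simulated data. Peak numbers were compared by exact permutation in Python 3.11.15. An overlap of 1 bp counted. No pair of replicate libraries agreed within sampling noise (chi-square over its degrees of freedom of 1.88 to 6.41). Alternatives were library totals, strength offsets, DESeq2 1.42.0, no filter, other windows, regions with a peak in all 6 lists, a replicate block and leaving out libraries; TMM on gene starts and the fold of 1.2 were chosen after seeing the data. The genes named are the 9, up to 4 per other list by the smallest p at the start, and the gene with the nearest profile.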

Additional observations from a re-analysis of the deposited data

How the results depend on the processing

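Of the 9 start changes, that of Rpa1 kept its direction and its call under all 15 alternatives, and DESeq2, no filter, the 250 bp window and regions with a peak in all 6 lists changed no call at starts. With library totals, 3 starts and 3 loci were lower, and 12 regions higher and 7 lower in place of 7 and 13. With strength offsets, 1 start and 1 locus were lower and 3 regions higher. With TMM on gene starts 2 starts were lower and with the fold of 1.2 tested 1. Regions with a peak in all 6 lists left 4 higher; without flanks 8 regions were lower and with 50 kb flanks 36. Leaving out 1 library gave 3 to 11 regions higher, 3 to 8 starts lower (3717 to 9040 over all 14133 starts) and, for peak numbers, differences between 4.0 and 8.0. Log2 changes that turned positive with library totals were Atr 0.061, Chek1 0.01 and Brca2 0.072 over loci and Atr 0.034 at the start. With strength offsets they were Atr 0.101, Chek1 0.055, Brca1 0.049 and Brca2 0.041 over loci, and Atr 0.076, Chek1 0.116, Brca1 0.037 and Wee1 0.014 at starts. With TMM on gene starts they were Atr 0.136, Chek1 0.049, Timeless 0.026 and Fancd2 0.049 at starts. Brca2 over its locus was 0.018 with 50 kb flanks and between -0.139 and 0.03 with 1 library left out, 0.03 being without untreated library a. Lists of equal length gave a difference of -1.67 peaks per library, nascent lists with 3 of 9 starts (2 at 48h), and, of the 3 member peaks left in the first and last bulk lists together, 66.7% in the last one, against 45.0% (ES course), 47.5% (nascent arm) and 43.9% (mature arm) in the full lists. The cause of these shifts was not tested.

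Over all genes, library totals gave 924 starts higher and 3385 lower, against 446 and 6838, and strength offsets 1317 and 1194. TMM on gene starts gave 2385 and 2608, and the fold of 1.2 gave 112 and 1150. Of called regions, 50.2% were higher, against 79.2% with library totals. With the column number as a replicate block, 717 starts were higher and 9010 lower, and Timeless (-0.23, adjusted p = 0.0143) and Brca2 (-0.32, adjusted p = 0.000773) passed at starts by edgeR. The block changed no other call among the 9 starts and 9 loci. Same-numbered libraries correlated by 0.259, 0.012 and 0.152 in their deviations from the group means, not every library correlated best with its own number, and the numbers were not taken as pairs. The 3 libraries per group limit what small changes can pass, and the pooled lists carry no replicate spread.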
